A study of Rattus norvegicus with 4 samples.

Results

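The 8 transcription factors that set and keep the identity of the gut lining, Cdx1, Cdx2, Hnf4a, Gata4, Gata6, Klf4, Klf5 and Creb3l3, were followed in rat small intestine. They were found by gene name: every gene probe whose name on the array, without the suffix for predicted or mapped genes, equalled one of the 8 names. Of the 8 genes, 7 had a probe, with 12 probes in all among the 41012 gene probes of the array, and Cdx1 was matched by no probe name. Hnf4a and Klf5 had 2 probes each and Gata6 had 4. Of the 12 probes, 11 probes of 6 genes were far enough above background (on 2 or more of the 4 arrays) to enter the test, which covered 28415 probes of 24313 genes in all. The Gata4 probe did not enter it and is described by its values alone.

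The study asked how compost extract in the drinking water affects gene expression in the gut. The control group was 2 male Wistar rats given tap water, and the compost group was 2 male Wistar rats that drank tap water with compost extract added at 1% (v/v), a heated watery dilution of a fermented commercial compost, for 12 weeks from the age of 3 weeks. RNA of each rat's small intestine, with Peyer's patches left out, was labelled with Cy3 and measured on 1 one-colour array per rat. The labels do not say which stretch of the small intestine was taken, and no genotype or transgene was involved. Wistar rats are outbred, so that 2 rats of a group can also differ by descent.

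All 4 arrays lay on 1 slide and in 1 scan, with the control rats ahead of the compost rats, so that the place on the slide and the group cannot be told apart. Per array, 66.5% to 71.0% of gene spots were flagged as clearly above background. The 75th percentile of intensity was 769 in control rat 1, 760 in control rat 2, 987 in compost rat 1 and 729 in compost rat 2, and it was subtracted on the log2 scale ("scaled log2 intensity" below). Epithelial markers were measured in 17 of 18 cases, with a median difference of -0.010 on the log2 scale (8 higher and 9 lower in compost). Their summed scaled intensity, in units of the array's 75th percentile, was 2104 to 2123 in the control rats and 1908 to 2367 in the compost rats. The keratins Krt20 and Krt18 and the lectin Lgals4 were measured on all 4 arrays. In such bulk tissue fewer cells of a type and less RNA per cell cannot be told apart.

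The intestinal lining is renewed from crypt stem cells, and a small network of DNA-binding proteins tells the daughter cells that they are intestinal, where along the gut they lie and which digestive proteins to make. CDX homeodomain proteins give intestinal rather than gastric fate, HNF4A drives genes of absorption and lipid handling, and GATA4 marks the proximal small intestine and holds ileal genes down there. KLF5 is a factor of dividing crypt cells and KLF4 of differentiated villus and goblet cells, while CREB3L3 is a membrane-bound factor of enterocytes and hepatocytes that is cut free to switch on apolipoprotein and fasting genes.

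None of the 11 probes differed between compost and control by limma's test with Benjamini-Hochberg adjustment over all 28415 probes (adjusted p = 1.00 for each), and 0 probes, 0.0% of all, did so on the whole array. Of the 6 genes tested, each by its brightest probe, 6 had a log2 difference (compost minus control) below 0, with a median of -0.22 or 1.17-fold. By probe, 10 of the 11 were below 0 and 1, a probe of Hnf4a, was above. Over all 24313 genes 13014 were lower and 11299 higher with a median of -0.018. The count below 0 was 5 of 6 with quantile scaling. It was 4 of 6 with no scaling, without control rat 2 or without compost rat 1. In 3 of the 6 genes, Creb3l3, Gata6 and Klf4, the groups separated downward, meaning that each compost rat lay below each control rat, as did 15.2% of all genes. Counted by probe this was so for 6 of 11, against 15.5% of all probes, but 4 of these 6 probes measure Gata6. Upward separation, each compost rat above each control rat, was found for 0 of the 11 probes, against 12.4% of all probes (12.7% of all genes). With no scaling between arrays 3 of the 11 probes separated downward, against 6.0% of all probes, namely those of Creb3l3 and Klf4 and 1 of Gata6. The members' median was then -0.074, and the median over all probes moved from -0.020 to 0.13.

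**Figure D1:**
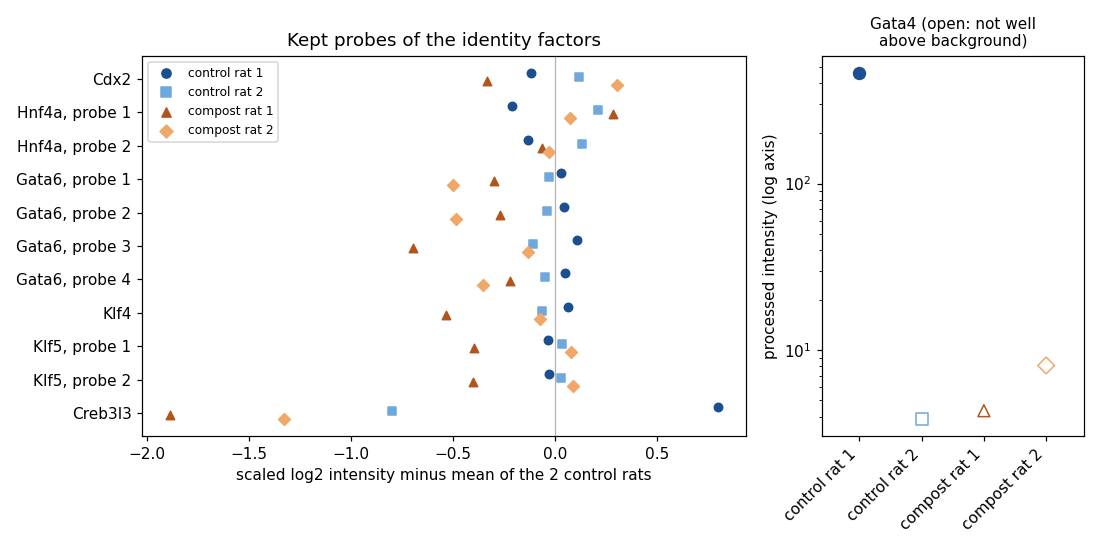
Scaled log2 intensity of the 11 tested probes in each rat, as the difference from the mean of the 2 control rats (left, x axis in log2 units), and processed intensity of the Gata4 probe on a log axis (right, open symbols not well above background). Creb3l3 spreads over 2.69 log2 units, the other 10 probes over 0.26 to 0.80, and Gata4 is bright in control rat 1 alone.

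Cdx2, the caudal-type homeobox factor that makes epithelium intestinal, gave a strong signal in every rat. Its processed intensity was 77905 in control rat 1, 90462 in control rat 2, 86018 in compost rat 1 and 98743 in compost rat 2. The groups overlapped, with compost rat 1 lowest and compost rat 2 highest once scaled (6.44 and 7.08 on the log2 scale). The log2 difference was -0.015 ± 0.28 (SE, n = 2 rats a group), with a 95% interval of -0.76 to 0.73. Its sign turned with quantile scaling, with no scaling and without control rat 2 or compost rat 1, so no direction can be given. The interval leaves room for a change of more than 1.5-fold either way.

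Genes known to be driven by CDX factors were split: 6 of the 15 measured were higher and 9 lower in compost, with a median of -0.11, or 0.039 with no scaling between arrays. Among the 14 well above background on all 4 arrays, 6 were higher and 8 lower, with a median of -0.086. Of the 14 that were well above background on at least 1 array of each group, 4 separated downward. Over all genes measured in this way in both groups, 14.9% separated downward and 12.5% upward. The 4 with the smallest p were Lct, Si, Vil1 and Car1, and 0 of the 15 passed. Lactase, Lct, was well above background in the control rats alone (intensities 96.7 and 41.2, against 16.7 and 7.33), so it entered the test only through the group where it was high and is left out of counts of separated genes. Sucrase-isomaltase, Si, which splits sucrose and starch ends at the brush border, read 31222 and 20226 in the control rats and 10287 and 17211 in the compost rats (-1.07 ± 0.47). Each compost rat lay below each control rat for Si. The carbonic anhydrase gene Car1, higher in distal gut, read 141 in control rat 1 and 2246 to 3322 in the other 3 rats. Its difference of 1.76 ± 1.51 thus rests on control rat 1.

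Hnf4a, a nuclear receptor that binds genes of enterocyte function, gave a low signal that was well above background in every rat, and its probes differed in sign. The first probe was printed on 10 spots of each array, and the geometric mean of its spots was 291 and 386 in the control rats and 528 and 336 in the compost rats. The standard deviation among the 10 spots of an array was between 8.07 and 18.8, which measures the array alone and not the spread between rats. After scaling the values were -1.40, -0.98, -0.90 and -1.12, and the groups overlapped. The log2 difference of this probe was 0.18 ± 0.23 (95% interval -0.43 to 0.79), and it was -0.033 without control rat 1. The second probe read 404 and 480 in the control rats and 543 and 412 in the compost rats. Its log2 difference was -0.047 ± 0.19 (-0.55 to 0.46), and it turned positive with no scaling and without control rat 2. Control rat 1 was the lowest of the 4 rats on both probes after scaling.

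Genes known to be driven by HNF4A or its partner factors lay lower in compost on the whole. All 24 listed genes were measured, and 24 had a difference below 0, with a median of -0.49 (1.40-fold). The 24 include Lct, which entered the test only through the control rats. Among the 23 well above background on all 4 arrays, 23 were lower with a median of -0.46. Of the 23 measured in both groups 13 separated downward, against 14.9% of all such genes. None of the 24 passed the test. Examples are the glucose-6-phosphatase gene G6pc1 (2447 and 3265 in control, 1599 and 1134 in compost; -1.22 ± 0.22), the brush border peptidase gene Anpep (113377 and 90045 in control, 82293 and 54198 in compost; -0.75 ± 0.21), the apolipoprotein gene Apoa4 and Lct. Control rat 1 stood out: 22 of the 24 genes were highest in control rat 1, where the median gene lay 0.61 above its own mean, against 0.090 in control rat 2, -0.48 in compost rat 1 and -0.091 in compost rat 2. Without control rat 1 the median was -0.23 with 19 of 24 genes lower, and without control rat 2 it was -0.89. With no scaling it was -0.34, and 23 of 24 genes were lower.

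Gata6, a zinc finger factor of crypt cells that is found along the whole small intestine, gave like log2 differences on its 4 probes, although their intensities were unlike. The first probe read 426 and 404 in the control rats and 435 and 279 in the compost rats. The second read 909 and 847 against 939 and 597. On these probes and the fourth, compost rat 2 was the lowest rat by intensity. The third read 3370 and 2866 in the control rats and 2477 and 2699 in the compost rats, and the fourth, which carries another transcript record, read 3228 and 2976 against 3432 and 2312. After scaling the groups separated downward on all 4 probes, although on the third compost rat 2 (1.89) lay just under control rat 2 (1.91). The log2 differences were -0.40 ± 0.18, -0.38 ± 0.19, -0.41 ± 0.26 and -0.29 ± 0.18, which is 1.22-fold to 1.33-fold lower in compost. The narrowest of the 95% intervals, that of the fourth probe, ran from -0.76 to 0.19, and each of the 4 held 0. The probes share a target and are not 4 measurements of the rats.

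Gata4, the zinc finger factor of duodenum and jejunum, was seen in 1 rat. Its processed intensity was 461 in control rat 1, 3.87 in control rat 2, 4.34 in compost rat 1 and 8.11 in compost rat 2, and the array software marked control rat 1 alone as well above background. Before background subtraction the spot means were 487, 109, 108 and 117, over local backgrounds of 85.5, 84.0, 93.0 and 90.0. The 3 low values have no order among themselves, so no nearest genes are given for Gata4. No bound on the fold between the groups can be given, since only 1 of the 2 control arrays measured the gene. The control mean on the log2 scale was 2.68-fold above the lowest level counted as well above background on the compost arrays. That mean takes in control rat 2, whose own level is not known. Without control rat 1 no array of either group measured the gene.

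Jejunal genes known to need GATA4 were also highest in control rat 1. Of 11 listed genes 10 were measured, 9 lower and 1 higher in compost with a median of -0.49, and 9 of the 10 were highest in control rat 1. The median gene lay 1.15 above its own mean in control rat 1 and at -0.25, -0.32 and -0.37 in control rat 2, compost rat 1 and compost rat 2. The 10 include Lct, which entered the test only through the control rats. Among the 9 well above background on all 4 arrays, 8 were lower and 1 higher, with a median of -0.46. Of the 9 measured in both groups 4 separated downward and 1 upward, against 14.9% and 12.5% of all such genes. Without control rat 1 the list was split, 5 higher and 5 lower, with a median of -0.072, and without control rat 2 the median was -1.52. An example is the fatty acid carrier gene Cd36, at 3854 and 854 in control and 984 and 365 in compost (-1.75 ± 0.80). Apoc3, which slows the clearing of triglyceride-rich particles, read 10874 and 5288 in control and 3563 and 4508 in compost (-1.07 ± 0.46). The list shares 7 genes with that of HNF4A targets, which is 70.0% of the one and 29.2% of the other.

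Ileal genes that GATA4 is known to hold down in the jejunum were not highest in that rat. All 7 were measured, 3 higher and 4 lower in compost with a median of -0.13 that turned to 0.022 with no scaling. While 0 of the 7 were highest in control rat 1, only 2 were lowest there, against 3 in compost rat 1 and 2 in compost rat 2. The median gene lay at -0.12 and 0.24 from its own mean in the control rats and at -0.098 and 0.14 in the compost rats. The ileal bile acid importer gene Slc10a2 read 25722 in control rat 1 and 45159, 45820 and 47517 in the other 3 rats (0.30 ± 0.36). Fgf15 (listed by its current name, Fgf19), the bile acid signal of the ileum, read 686 and 3665 in control and 1678 and 451 in compost (-1.02 ± 0.95). Its groups overlapped widely. Nr0b2, a repressor induced by bile acids, read 10405 and 16966 in control and 11952 and 7082 in compost (-0.68 ± 0.31), and Slc51b, an exporter of bile acids, differed by 0.21 ± 0.23. Colonic markers were lowest in control rat 1 in 5 of 7 cases. Whether a different stretch of intestine was taken from control rat 1 was not tested.

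**Figure D2:**
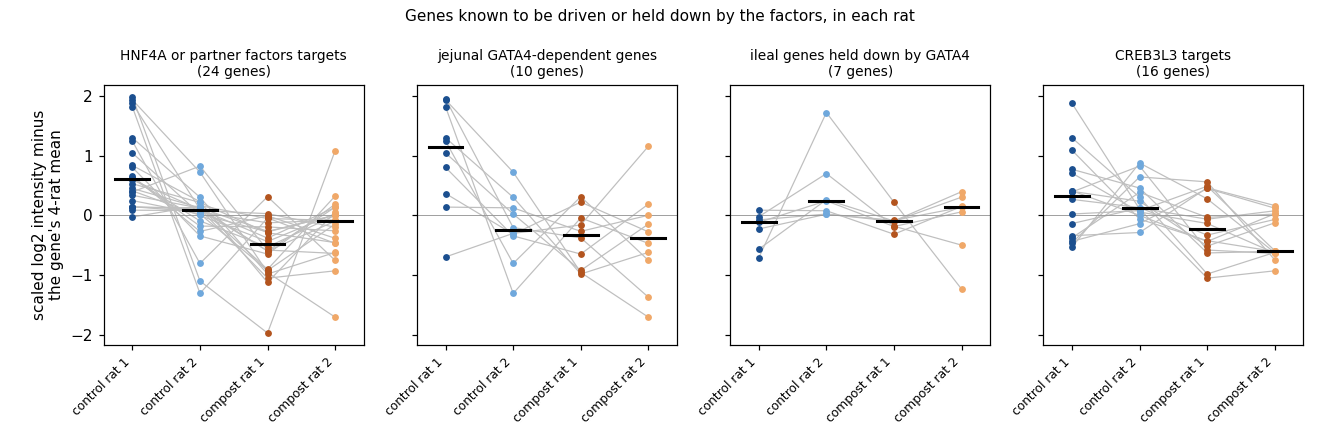
Each gene's scaled log2 intensity minus its own mean over the 4 rats (y axis, log2 units) for genes known to depend on HNF4A or its partner factors, jejunal genes that need GATA4, ileal genes held down by GATA4 and genes driven by CREB3L3. Grey lines join a gene and black bars are medians: the HNF4A and jejunal lists stand at 0.61 and 1.15 in control rat 1. The ileal list stands at -0.12 in control rat 1 and at -0.098 in compost rat 1.

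Klf4, the factor of differentiated villus and goblet cells, was well above background in every rat. Its intensity was 49097 and 44318 in the control rats and 41644 and 42246 in the compost rats. The groups separated downward with and without scaling, but compost rat 2 (5.86) lay next to control rat 2 (5.87) on the scaled log2 scale. The log2 difference was -0.30 ± 0.23 (95% interval -0.91 to 0.31), and -0.073 without compost rat 1.

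Klf5, the factor of dividing crypt cells, was the steadiest member by intensity. Its first probe read 48901 and 50578 in the control rats and 48696 and 50114 in the compost rats, and its second 2536 and 2613 against 2516 and 2606. On each probe the highest rat was 1.04 times the lowest before scaling. After scaling that ratio was 1.39 and 1.40, with compost rat 1 lowest on both probes. The log2 differences were -0.16 ± 0.23 (95% interval -0.77 to 0.46) and -0.16 ± 0.24 (-0.78 to 0.46). Without compost rat 1 they were 0.081 and 0.087, so the direction rests on that rat, and with no scaling they were -0.0097 and -0.0075.

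Genes known to be driven or held down by KLF4 or KLF5 were split, 6 higher and 5 lower among 11 of 14 measured, with a median of 0.094 that became -0.14 without compost rat 2. Among the 10 well above background on all 4 arrays, 6 were higher and 4 lower, with a median of 0.12. Of the 10 measured in both groups 1 separated downward and 0 upward, against 14.9% and 12.5% of all such genes. The intestinal alkaline phosphatase gene Alpi, a KLF4 target of the brush border, read 211 and 33.5 in control and 6.90 and 4.09 in compost. It was well above background in the control rats alone, through which it entered the test. The growth factor gene Pdgfa (2404 and 2107 against 2092 and 1878; -0.33 ± 0.20), the immediate early gene Egr1 (0.42 ± 0.37) and the lactate dehydrogenase gene Ldha (0.21 ± 0.24) followed. Of Pdgfa, Egr1 and Ldha only Pdgfa had groups that did not overlap. Those of Alpi did not overlap either, but Alpi is left out of counts of separated genes.

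**Figure D3:**
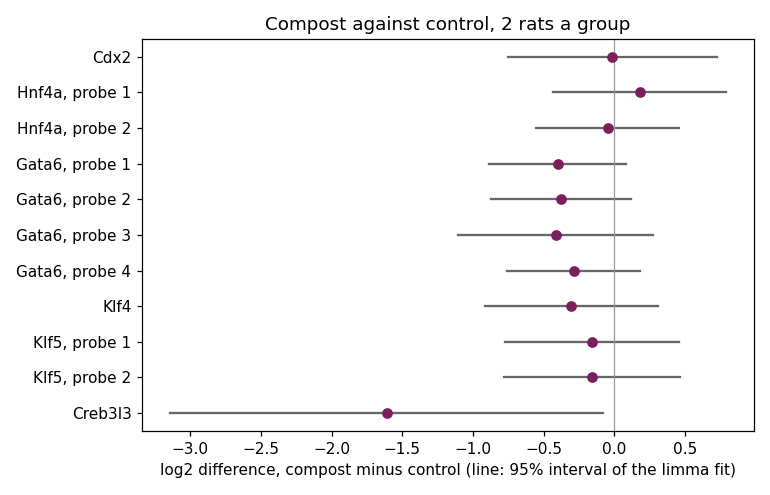
Log2 difference, compost minus control, of each tested probe (points) with the 95% interval of the limma fit (lines), 2 rats a group. The intervals of 10 probes hold 0, and that of Creb3l3 runs from -3.14 to -0.077.

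Creb3l3 had the largest difference among the 6 tested members. Its intensity was 50689 in control rat 1, 16507 in control rat 2, 10082 in compost rat 1 and 10954 in compost rat 2. The groups separated downward, and control rat 1 stood apart from the other 3. The highest rat was 5.03 times the lowest by intensity and 6.45 times after scaling. The log2 difference of -1.61 ± 0.58 (95% interval -3.14 to -0.077; 3.05-fold lower; unadjusted p = 0.0430, adjusted p = 1.00 by limma) was the only one of the 11 with an unadjusted p under 0.05. Over all 28415 kept probes 913 had an unadjusted p under 0.05 by limma, 512 of them lower in compost. The log2 difference of Creb3l3 was -2.41 without control rat 2 and -0.81 without control rat 1. It was -1.33 and -1.89 without compost rat 1 and compost rat 2.

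Among the 100 measured genes of the lists of targets and partner factors, the 3 whose values over the 4 rats lay nearest to those of Creb3l3 were Apoa4, Pck1 and Apoc3. Likeness was the root mean square distance between the scaled log2 values of 2 genes, each centred on its mean over 4 arrays, and was 0.22, 0.25 and 0.35, against a median of 0.99 over the 100 genes. Apoa4, an apolipoprotein of chylomicrons, read 412308 and 203977 in control and 108634 and 103079 in compost. Pck1, which makes phosphoenolpyruvate for new glucose and glycerol, read 8061 and 2331 against 1358 and 1091. All of them were highest in control rat 1, second in control rat 2 and lowest in the compost rats, as the lines of Creb3l3 and its neighbours show. With 4 arrays such likeness is a description.

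**Figure D4:**
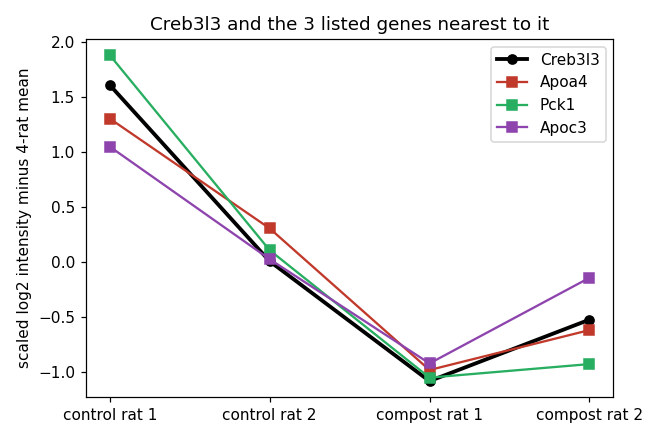
Scaled log2 intensity of Creb3l3, Apoa4, Pck1 and Apoc3 minus each gene's mean over the 4 rats (y axis, log2 units), by rat. The 4 lines run together, highest in control rat 1 and lowest in compost rat 1, with distances to Creb3l3 of 0.22, 0.25 and 0.35.

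Because Apoa4 and Pck1 lay nearest to Creb3l3 over the rats, the promoters that RefSeq gives for these 3 genes are shown, from 250 bases before to 50 after the start of the gene on the GRCr8 build, 5′ to 3′ on the gene's own strand. They are Creb3l3 (chr7:9273070-9273369, plus strand), Apoa4 (chr8:55435529-55435828, plus strand) and Pck1 (chr3:182348322-182348621, plus strand). Capitals mark short letters known for these factors on either strand: CCACGT or else TGACGT for the CREB3 family, AGATAA or else TGATAA for the GATA family, and TTTATG, or else TTTATT, or else TTTACG for the CDX family. CAAAGTCCA or else CAAAGGTCA was searched for HNF4, and CCACACCC or else CCCCACCC for the KLF family.
Creb3l3: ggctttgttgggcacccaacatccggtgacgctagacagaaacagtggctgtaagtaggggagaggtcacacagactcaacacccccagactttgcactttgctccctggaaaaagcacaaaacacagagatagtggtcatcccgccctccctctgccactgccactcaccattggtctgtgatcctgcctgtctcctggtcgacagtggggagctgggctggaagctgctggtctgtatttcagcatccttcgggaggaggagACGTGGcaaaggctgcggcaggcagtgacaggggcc
Apoa4: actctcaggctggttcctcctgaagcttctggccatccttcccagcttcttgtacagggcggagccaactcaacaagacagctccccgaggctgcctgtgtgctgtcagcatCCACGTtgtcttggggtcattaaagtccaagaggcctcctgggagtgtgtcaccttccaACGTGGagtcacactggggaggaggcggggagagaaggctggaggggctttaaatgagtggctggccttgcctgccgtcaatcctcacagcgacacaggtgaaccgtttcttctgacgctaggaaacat
Pck1: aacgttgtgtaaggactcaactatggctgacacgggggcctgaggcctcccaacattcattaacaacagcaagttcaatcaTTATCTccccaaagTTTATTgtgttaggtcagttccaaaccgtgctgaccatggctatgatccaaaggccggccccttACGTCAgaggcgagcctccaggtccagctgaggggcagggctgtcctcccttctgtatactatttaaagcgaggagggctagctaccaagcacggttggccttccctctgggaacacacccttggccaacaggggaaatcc
Creb3l3 held 1 CREB3 match, CCACGT on the other strand at 15 after the start, and Apoa4 held 2, CCACGT at -138 and on the other strand at -79. Pck1 held TGACGT on the other strand at -91, AGATAA on the other strand at -169 and TTTATT at -155. Such letters are common: of 33469 rat promoters of this length 14.6% held a CREB3 match, 18.9% a GATA, 31.7% a CDX, 12.2% a KLF and 0.813% an HNF4 match. A match is a run of letters and not a measured binding site. Of the 7 members looked up, 6 had a promoter in the table. Those of Cdx2, Hnf4a, Gata6, Klf4 and Klf5 held no CREB3 match. Apoc3, the third gene near Creb3l3, had no promoter in the table and is not shown.

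Genes known to be driven by CREB3L3 were mostly lower. Of 18 listed genes 16 were measured, 13 lower and 3 higher in compost with a median of -0.41 (1.32-fold), and 0 of them passed. The groups separated downward in 8 of the 16 and upward in 2, against 14.9% and 12.5% of all genes measured in both groups. Apoa5, a regulator of plasma triglycerides, read 875 and 695 in control and 424 and 319 in compost. Unlike Creb3l3 itself, its control rats lay close together. Of the 16 genes 8 were highest in control rat 1 and 5 in control rat 2. The median was -0.45 without control rat 1, -0.54 without control rat 2, -0.72 without compost rat 1, -0.52 without compost rat 2 and -0.26 with no scaling. The list shares 4 genes with the HNF4A targets, 25% of it and 16.7% of the other.

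Other transcription factors of intestinal identity and lineage showed no common direction. Of 36 listed, 28 were measured, 13 higher and 15 lower, with a median of -0.028 that turned to 0.0090 with quantile scaling and 0.12 with no scaling. The groups separated upward in 5 and downward in 5, near the 12.5% and 14.9% of all genes measured in both groups. Prdm1, a repressor of the adult enterocyte programme before weaning and a factor of plasma cells, read 292 and 224 in control and 535 and 388 in compost (0.68 ± 0.21). Markers of B and plasma cells, measured in 7 of 12 cases, were higher in compost in 7 of 7 (Ms4a1 among them was well above background in compost alone) with a median of 1.45, and their summed scaled intensity was 4.27 to 6.29 in the control rats and 9.65 to 16.2 in the compost rats. The part of such cells in the Prdm1 value was not tested. Maf, a factor of enterocyte nutrient genes, read 4942 and 4603 against 3753 and 3515 (-0.54 ± 0.21). Nr5a2, a nuclear receptor of crypt and bile acid genes, and Esrra, one of mitochondrial genes, differed by -0.44 ± 0.23 and -0.29 ± 0.20. The groups separated for each of these 4 factors, which were named for having the smallest p among the 28, and none passed.

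Few factors of neighbouring gut segments were measured. Of 8 listed, 3 were measured, 3 of them higher in compost with a median of 0.11 that turned to -0.058 with normexp background correction. The duodenal factor Pdx1 (0.081 ± 0.32) was well above background in control rat 1 and compost rat 1. The gastric mesenchyme factor Barx1 was well above background in the compost rats alone, with intensities of 17.2 and 15.6 in control and 24.7 and 24.4 in compost, and entered the test through that group. The gut mesenchyme factor Nkx2-3 (0.11 ± 0.47) was measured in all rats. The groups of Pdx1 and Nkx2-3 overlapped. Gastric markers were measured in 3 of 8 cases, with a median of 0.092 that ranged from -0.077 to 0.22 with 1 rat left out.

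Across the members, compost rat 1 was the low rat. After scaling 6 of the 11 probes were lowest there and 3 in compost rat 2. With each of the 6 genes by its brightest probe, the median gene lay 0.32 below its own mean there (-0.32). It lay at 0.12 and 0.10 in the control rats and 0.037 in compost rat 2. Over all genes the median in compost rat 1 was -0.042. With no scaling compost rat 1 was lowest on 5 probes and highest on 5. Some markers of other cell types were high in the same rat. Fibroblast markers (9 of 9 measured) lay 0.67 above their own mean there and their summed scaled intensity was 71.6, against 33.3 to 45.8 in the other rats. Macrophage markers (10 of 11) lay 0.81 above their mean there, endothelial markers (9 of 10) 0.47 and smooth muscle markers (9 of 11) 0.27. By summed scaled intensity compost rat 1 was not the highest for these 3 lists. Macrophages were highest in control rat 2 (264 and 351 in control, 341 and 246 in compost), endothelium in control rat 1 (21.4 and 10.9, 19.7 and 13.8) and smooth muscle in compost rat 2 (131 and 139, 145 and 153). T cell markers lay at -0.16 in compost rat 1. The medians of compost minus control were 0.24 for fibroblast, 0.56 for macrophage, 0.11 for endothelial and 0.10 for smooth muscle markers, and without compost rat 1 they were -0.31, 0.092, -0.29 and -0.15, so 3 of the 4 turned. Epithelial markers lay at -0.16 in compost rat 1 and at 0.10 in compost rat 2. Whether the makeup of the tissue moved the members was not tested.

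The remaining marker lists gave medians of 0.14 for T cells, -0.14 for enteric neurons and glia, -0.29 for pancreatic acinar cells, -0.10 for hepatocytes, 0.021 for colonic markers and 0.047 for immediate early and heat shock genes of handling. With 1 rat left out, each of these 6 medians took both signs: -0.45 to 0.73 for T cells, -0.37 to 0.080 for neurons and glia, -0.36 to 0.12 for pancreatic, -0.29 to 0.082 for hepatocyte, -0.53 to 0.31 for colonic and -0.055 to 0.11 for handling genes. None of these lists had a gene that passed.

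**Figure D5:**
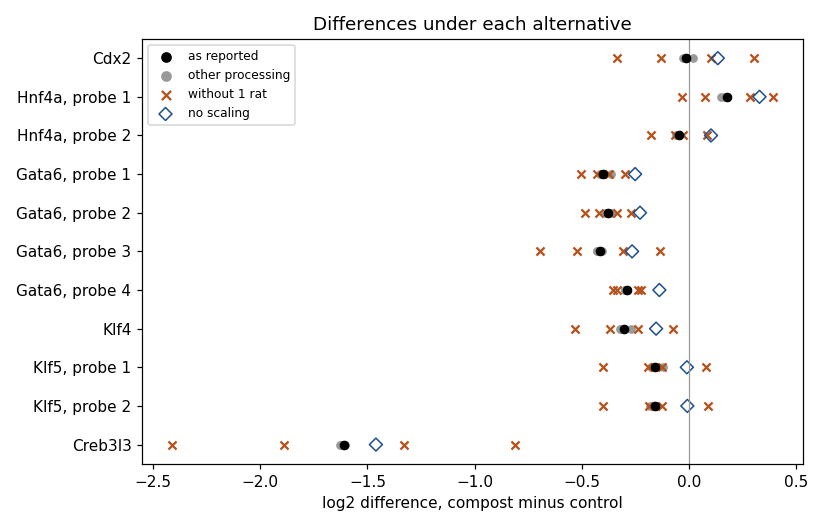
Log2 difference of each tested probe as reported (black), under other processing (grey), with no scaling between arrays (open diamonds) and without each rat in turn (crosses). Creb3l3 ranges from -2.41 to -0.81, and the probes of Cdx2, Hnf4a and Klf5 lie on both sides of 0.

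Leaving out each rat shows which members rest on 1 animal. Creb3l3 ranged from -2.41 to -0.81 and Klf4 from -0.53 to -0.073. The third Gata6 probe ranged from -0.70 to -0.13, and the other 3 lay between -0.50 and -0.22. For Cdx2, both Hnf4a probes and both Klf5 probes the sign depended on the rats or the scaling used. With 2 rats a group, an exact two-sided permutation test of a single gene cannot go below p = 0.333, so none was used.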

How the data were processed

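Per the file headers and the submitters' processing notes, the authors scanned the arrays with Agilent Feature Extraction 9.1.3.1, and the deposited files hold for each spot a processed intensity, detrended and background-subtracted on a linear scale, with the raw mean and local background intensity and flags. The deposited value table holds the same intensity rounded (largest difference under 0.5%). From these, outlier spots were left out, log2 intensities were averaged over a probe's spots, and the 75th percentile of each array, over gene probes, was taken off. The 28415 probes that were well above background in 2 or more rats were kept. Compost was compared with control with limma 3.58.1 in R 4.3.3 (lmFit, eBayes, two-sided, Benjamini-Hochberg over all kept probes, threshold 0.05), tested on simulated data. Errors are standard errors of that fit. Only 2 arrays a group limit the precision. The p-values rest on the spread between these rats, which eBayes draws toward the spread over all kept probes. Each gene stands by the brightest of its kept probes. Old names of other genes were updated through RefSeq's GRCr8 table: accessions matched 10835 probes, symbols 5196 and synonyms 3488, while 21493 kept the file's name. The array's genome build is not given in the sources used here.

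Every probe of the 8 members is described, and some genes are not reported here. Of each list of targets or factors at most 4 genes with the smallest p are named, and of marker lists the brightest. The nearest genes were sought for the 2 members of widest range, and are not given for Gata4, which was below background in 3 rats. Members and lists were chosen with earlier results of these data known, and lists are described by counts and medians. Alternatives were normexp background correction, quantile scaling, the percentile over probes detected on all arrays, other filters on dim probes, a variance trend with robust estimation, a replicate block, the deposited value table, no scaling (chosen after seeing the data) and leaving out each rat.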

Additional observations from a re-analysis of the deposited data

How the results depend on the processing

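Over all probes, 1 passed with normexp background correction and 0 to 2 when 1 rat was left out (2 without control rat 2), and 0 passed under the other alternatives. Of the members' probes 0 passed in limma's test under any of the 13 alternatives. The lowest adjusted p was 0.344, for Creb3l3 without control rat 2. The members' median difference of -0.22 was -0.074 with no scaling between arrays and -0.37 to -0.050 with 1 rat left out. Of 143 values of single probes under the alternatives, 134 kept their direction and 9 turned, on 5 of the 11 probes. The count of 134 takes in values that could not turn. The filters on dim probes, the variance trend and the replicate block leave a probe's difference unchanged by construction. Cdx2 turned to 0.019 with quantile scaling and 0.13 with no scaling, and ranged from -0.33 to 0.30 with 1 rat left out (positive without control rat 2 or compost rat 1). The first Hnf4a probe ranged from -0.033 (without control rat 1) to 0.39, and the second from -0.18 to 0.085 (without control rat 2), or 0.10 with no scaling. The Klf5 probes ranged from -0.40 to 0.081 and from -0.40 to 0.087 (both positive without compost rat 1). The cause was not tested. The labels do not say whether the replicate numbers pair the rats. Over 28415 probes the replicate differences of both groups correlated at -0.036, which shows no shared deviation. The fit with the replicate number as a block gave 0 calls. Its median of -0.22 was fixed in advance, since such a block cannot change the differences in this balanced layout. Probes whose groups do not overlap keep their sign by construction when a rat is left out. For Gata4, signal below background on 3 arrays limits what can be said.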
